A study of Homo sapiens with 4 samples.

Results

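The genes described here are the eukaryotic translation initiation factors (symbols starting with EIF and a digit) and elongation factors (symbols starting with EEF and a digit) that are annotated as protein-coding. The rule found 67 such genes among the 25702 genes in the count files, which hold 18929 protein-coding genes in all. WTS (whole transcriptome sequencing) after poly(A) enrichment measured them in K562, an established line of human chronic myeloid leukemia cells with erythroid features. The comparison asks how the transcriptome differs when the cells express RUNX1::ERG, a fusion that joins the Runt DNA-binding domain of RUNX1 to the ETS domain of ERG. One group was transfected with the LeGO-iG2 plasmid carrying RUNX1::ERG and the other with the empty LeGO-iG2 vector, and both groups co-expressed green fluorescent protein from the plasmid and had no further treatment. Each group had 2 libraries, named biological replicates. Expression from the plasmid was transient, and whether transfected cells were sorted before RNA extraction is not given in the sources used here. In such bulk samples, fewer cells expressing a gene and less RNA per cell cannot be told apart.

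Translation starts when eIF2, loaded with GTP, brings the initiator tRNA to the small ribosomal subunit together with eIF1, eIF1A, eIF3 and eIF5. The eIF4 factors recruit this complex to the mRNA cap: eIF4E binds the cap, eIF4G is the scaffold, eIF4A is an RNA helicase and eIF4B its helper. eIF5B then joins the large subunit, eEF1A delivers each aminoacyl-tRNA, and eEF2 moves the ribosome along. The eIF4E-binding proteins hold eIF4E away from eIF4G when the mTOR kinase is inactive, and the eIF2α kinases phosphorylate eIF2 under stress, which blocks its reloading by eIF2B. Many elongation factor mRNAs, like ribosomal protein mRNAs, begin with a terminal oligopyrimidine (TOP) tract, through which mTOR controls their translation. MYC is a known activator of several of these genes.

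The RefSeq promoter table (GRCh38.p14; 250 bases before and 50 after each gene's start) held 69 starts of 53 of these factors. A start was counted as a tract where its first base is C and at least 5 pyrimidines follow one another from there. This held for 12 starts of 12 factors, 17.4% of the member starts, against 4.07% of all 35116 starts in the table and 5.14% of the starts of the genes tested. These short windows are shown because they mark the factors whose mRNA begins like a TOP mRNA. Each runs from 10 bases before the annotated start to 20 bases from it on the gene's strand, and the capitals are the unbroken pyrimidine run at the start.
EEF1A1 (chr6:73521013-73521042, minus strand): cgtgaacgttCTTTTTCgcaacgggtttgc
EEF2 (chr19:3985444-3985473, minus strand): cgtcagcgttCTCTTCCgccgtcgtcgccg
EEF1B2 (chr2:206159885-206159914, plus strand): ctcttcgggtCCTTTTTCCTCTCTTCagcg
EIF4B (chr12:53006446-53006475, plus strand): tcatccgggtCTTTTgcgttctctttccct
EIF3D (chr22:36529147-36529176, minus strand): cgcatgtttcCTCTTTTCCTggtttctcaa
EIF3F (chr11:7987327-7987356, plus strand): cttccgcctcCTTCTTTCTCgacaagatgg
EIF3M (chr11:32583821-32583850, plus strand): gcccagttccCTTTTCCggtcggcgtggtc
EIF3K (chr19:38619178-38619207, plus strand): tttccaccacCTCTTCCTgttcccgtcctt
EIF2S3 (chrX:24054946-24054975, plus strand): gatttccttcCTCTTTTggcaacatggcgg
EIF4A2 (chr3:186783567-186783596, plus strand): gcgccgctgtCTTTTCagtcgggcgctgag
EIF2A (chr3:150546777-150546806, plus strand): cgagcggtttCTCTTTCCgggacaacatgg
EIF2D (chr1:206612446-206612475, minus strand): ccagccgggcCCTTTTCgcggccgggcccc
The run was 5 bases in EIF4B and 16 bases in EEF1B2, the ends of the range. A match describes these letters and not a tested TOP mRNA.

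Among the factors, EEF1A1, which delivers aminoacyl-tRNA to the ribosome, had the highest level. Levels are given as TMM-normalized CPM, counts scaled to a common library size, and levels of different genes are compared as CPM per kb of the gene's canonical GENCODE transcript. EEF1A1 was at 7772 and 9091 CPM with the empty vector and at 6207 and 7708 CPM with RUNX1::ERG. Per length, it was at 2401 CPM per kb with the empty vector and 1981 with RUNX1::ERG. EEF2, the translocase, was at 1248 and 946 CPM per kb, EEF1G, a subunit of the exchange factor that reloads eEF1A, at 1212 and 954, and EIF5A, which relieves ribosome stalling, at 838 and 699. EEF1A1 alone took between 26.1% and 29.1% of the normalized counts of the 67 factors in a library. Its tissue-restricted paralog EEF1A2 stood at 45.9 and 46.4 CPM per kb. Within initiation, per length, EIF4A1 was highest among the eIF4 factors (497 and 421 CPM per kb), EIF3K in eIF3 by the mean of both groups (393 and 384, with EIF3I above it with the empty vector and below it with RUNX1::ERG, at 415 and 329), EIF2S3 in eIF2 and eIF2B (188 and 151) and EIF1 among the factors of start codon selection (201 and 167).

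**Figure D1:**
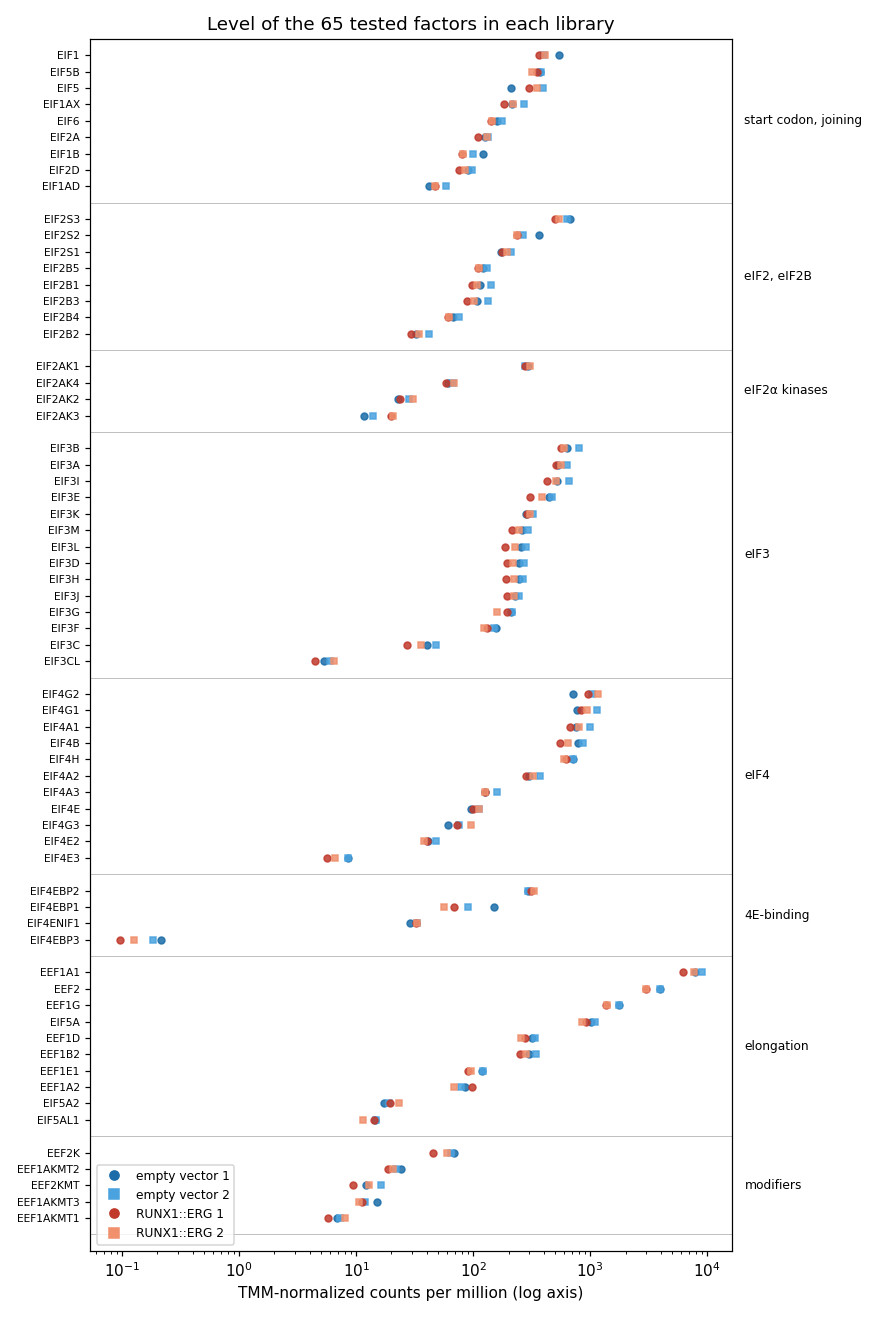
Each row is one of the 65 tested factors and each point is its TMM-normalized CPM in one library, on a log axis, with circles for replicate 1, squares for replicate 2, blue for empty vector and red for RUNX1::ERG. Levels run from EEF1A1, with 6207 to 9091 CPM, down to EIF4EBP3, at most 0.216 CPM, and within most rows the libraries lie close together.

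Of the 67 factors, 65 passed the filter on low counts. The other two were EIF1AY, with no count in any library, and EIF4E1B, with at most 4 counts in a library. By edgeR's quasi-likelihood test over 15394 genes with Benjamini-Hochberg adjustment, 1 of the 65 tested factors, EIF4EBP1, was called at an adjusted p under 0.05, and it fell. Over all genes tested, 4.79% were called, 1.15% lower and 3.64% higher. No factor was called higher by edgeR's test, against 1 with an unadjusted p under 0.05 and 1 by the DESeq2 Wald test, in both cases EIF2AK3. At an unadjusted p under 0.05, 12 of the 65 passed, against 18% of all genes. The 11 of them that were lower made up 16.9% of the factors, against 7.26% of all genes tested.

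The factors nevertheless lay to one side as a group. Their fitted expression was lower with RUNX1::ERG in 54 of 65, against 50.2% of all genes tested, and their median log2 fold change was -0.24, against 0.00 over all genes tested. In 38 of 65 factors (58.5%) both libraries with RUNX1::ERG were under both with the empty vector, against 22.1% of all genes. The opposite order was found in 3 factors (4.62%), EIF2AK3, EIF4EBP2 and EIF5A2, against 25.1% of all genes. The shift is small for each gene. For 62 of 65 factors the absolute log2 fold change was under 0.5, with a median standard error (SE) of 0.16. Abundance moved with this pattern: among the 2478 tested genes with a mean of at least 100 CPM, 58.4% were lower and the median was -0.05, against 36 of 41 factors at that level and a median of -0.26. The part of abundance in the shift was not tested.

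**Figure D2:**
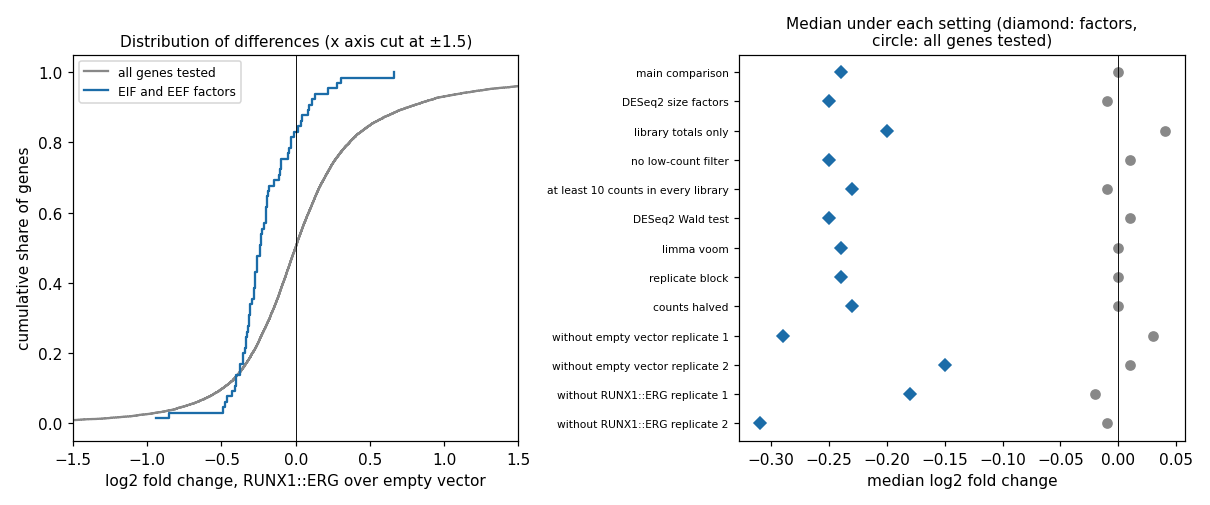
Left, the cumulative share of genes by log2 fold change of RUNX1::ERG over empty vector, in grey for all 15394 genes tested and in blue for the 65 tested factors; the blue curve is steeper and lies left of the grey one except at the low end. Right, the median log2 fold change of the factors (diamonds) and of all genes (circles) under each setting, where the diamonds lie between -0.31 and -0.15 and the circles between -0.02 and 0.04.

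The shift was of the same order as the spread between replicates of a group. Taking each gene's deviation from its own mean over the 4 libraries on the log2 scale, the median over the factors was 0.03 and 0.17 in empty vector replicates 1 and 2, and -0.18 and -0.04 in RUNX1::ERG replicates 1 and 2. Thus empty vector replicate 1 and RUNX1::ERG replicate 2 lay only a little apart, while the groups did not overlap. Replicate 2 was above replicate 1 for 49 of 65 factors with the empty vector and for 52 with RUNX1::ERG. For 28 factors the empty vector libraries differed from each other by more than the fitted fold change. Without empty vector replicate 2 the median was -0.15 with 46 factors lower, and without RUNX1::ERG replicate 1 it was -0.18 with 49 lower. Without empty vector replicate 1 or RUNX1::ERG replicate 2 it was -0.29 and -0.31, each with 58 lower. In all, 43 of 65 factors were lower in each of the 4 fits that left out a library. The 38 factors without overlap on the lower side stay lower in such fits by construction, apart from changes in scaling. The share of all genes tested that were lower in each of these fits was not computed. ERG, whose counts come from the plasmid, was at 954 normalized CPM in RUNX1::ERG replicate 1 and 379 in replicate 2. The part of that difference in the lower factor levels of replicate 1 was not tested.

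Elongation factors were lower in 8 of 10 tested genes, against 50.2% of all genes tested, with a median log2 fold change of -0.27. In each of these 8 (80%) both libraries with RUNX1::ERG were under both with the empty vector, against 22.1% of all genes tested. Among the abundant factors, EEF2 and EEF1G had tight replicates. EEF2 was at 3975 and 3905 CPM with the empty vector and at 2975 and 3000 with RUNX1::ERG. This log2 fold change of -0.40 (SE 0.11) had an adjusted p of 0.071 by edgeR's test, the lowest among the factors not called. EEF1G was at 1744 and 1762 against 1374 and 1385 CPM, a log2 fold change of -0.35 (SE 0.12, edgeR adjusted p = 0.16). In both genes the gap between the groups was many times the gap within them. EEF1A1 varied more between replicates, and its log2 fold change of -0.28 (SE 0.13) had an adjusted p of 0.3 by the same test. The other subunits of the exchange factor, EEF1B2 and EEF1D, were at -0.26 and -0.29, and EEF1E1, which sits in the multi-tRNA synthetase complex, at -0.37. EIF5A was at 1021 and 1097 CPM against 916 and 851, a log2 fold change of -0.26.

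EEF1A2 and EIF5A2, paralogs of EEF1A1 and EIF5A, had fitted values at or above 0. EEF1A2 was at 84.9 and 77.9 CPM with the empty vector and at 96.8 and 67.8 with RUNX1::ERG, so the groups overlapped and the log2 fold change was 0.02 (SE 0.19, edgeR adjusted p = 0.98); its sign changed in 2 of the fits without a library. EIF5A2 was at 17.4 and 19.2 CPM against 19.5 and 23.0, a log2 fold change of 0.22 (SE 0.19, edgeR adjusted p = 0.63). Whether a paralog differs from its partner in response was not tested. EIF5AL1, a near-copy of EIF5A, was at 14.5 and 14.8 CPM against 14.1 and 11.5, without overlap, and its log2 fold change was -0.19. Reads of such near-identical genes may have been split or dropped in counting.

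The eIF3 complex is the largest initiation factor and the platform on which the others assemble. All 14 of its tested genes were lower in the main comparison, against 50.2% of all genes tested. The median log2 fold change of the 14 was -0.30. In 11 of the 14 (78.6%) both libraries with RUNX1::ERG were under both with the empty vector, against 22.1% of all genes tested. None passed the adjusted threshold in edgeR's or DESeq2's test, against 4.79% and 7.27% of all genes tested. In edgeR's test 3 of the 14 (21.4%) were lower with an unadjusted p under 0.05, EIF3C, EIF3E and EIF3L, against 7.26% of all genes. EIF3E was at 443 and 471 CPM with the empty vector and at 303 and 386 with RUNX1::ERG, a log2 fold change of -0.41 (SE 0.16, edgeR adjusted p = 0.2). EIF3B, a core subunit, was at 630 and 795 against 561 and 591 CPM, and EIF3I, its partner, at 517 and 662 against 429 and 506. In these genes the RUNX1::ERG libraries were lower, but empty vector replicate 1 lay closer to them than replicate 2 did. EIF3A, the scaffold, and EIF3K, a peripheral subunit, had overlapping groups and log2 fold changes of -0.11 and -0.03; EIF3K turned positive, at 0.01, when scaled by library totals.

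EIF3C, a core subunit needed in equal number with EIF3A and EIF3B, had a level out of proportion to theirs. Per length it was at 15.2 CPM per kb with the empty vector, against 87.0 for EIF3A and 230 for EIF3B. EIF3CL, a near-identical copy of EIF3C, was at 1.93 CPM per kb. EIF3C and EIF3CL lie on chromosome 16 of GRCh37 at 28699879 to 28747048 and 28390900 to 28415162, so reads may fit both. EIF3C had a log2 fold change of -0.49 (SE 0.20, edgeR adjusted p = 0.22), from 39.9 and 48.3 to 27.3 and 35.5 CPM, and its reads are uncertain for that reason. The summed CPM of the pair was 45.1 and 54.3 with the empty vector and 31.8 and 42.0 with RUNX1::ERG, so adding the copy kept the order of the groups.

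For eIF2, the GTPase that carries the initiator tRNA, and eIF2B, its exchange factor, all 8 tested genes were lower in the main comparison. The share lower was 50.2% over all genes tested. The median of the 8 was -0.27 on the log2 scale. None of the 8 passed the adjusted threshold in edgeR's or DESeq2's test, against 4.79% and 7.27% of all genes tested. EIF2S3, the GTP-binding γ subunit, was at 665 and 634 CPM against 500 and 542, a log2 fold change of -0.32 (SE 0.14, edgeR adjusted p = 0.25). EIF2S1, the α subunit that the stress kinases phosphorylate, was at 172 and 212 against 176 and 195 CPM, and its groups overlapped. EIF2S2, the β subunit, was at 361 and 268 CPM with the empty vector and at 238 in both RUNX1::ERG libraries. Its log2 fold change of -0.40 was -0.17 without empty vector replicate 1, the library with the higher value, and -0.60 without empty vector replicate 2. Of the eIF2B subunits, EIF2B3 and EIF2B1 were at -0.34 and -0.33, and EIF2B2, EIF2B4 and EIF2B5, the catalytic subunit, between -0.22 and -0.20.

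Among factors of start codon selection and subunit joining, 8 of 9 tested genes were lower, against 50.2% of all genes tested. Their median was -0.23. In 4 of the 9 (44.4%) both libraries with RUNX1::ERG were under both with the empty vector, against 22.1% of all genes tested. EIF1B, a paralog of the start codon gatekeeper EIF1, was at 120 and 98.6 CPM against 79.8 and 82.1, a log2 fold change of -0.43 (SE 0.16, edgeR adjusted p = 0.18). EIF1 was at 536 CPM in empty vector replicate 1 and at 368 to 412 CPM in the other three libraries, so it separated that library and not the groups. EIF5, the GTPase-activating factor of eIF2, did the reverse: it was at 211 CPM in empty vector replicate 1 and at 394, 300 and 353 in the others. Its log2 fold change was 0.11 in the main comparison, -0.27 without empty vector replicate 1, 0.63 without its replicate 2 and -0.03 when RUNX1::ERG replicate 2 was left out. EIF5B and EIF6, which acts in the maturation of the large subunit, were at -0.18 and -0.23.

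**Figure D3:**
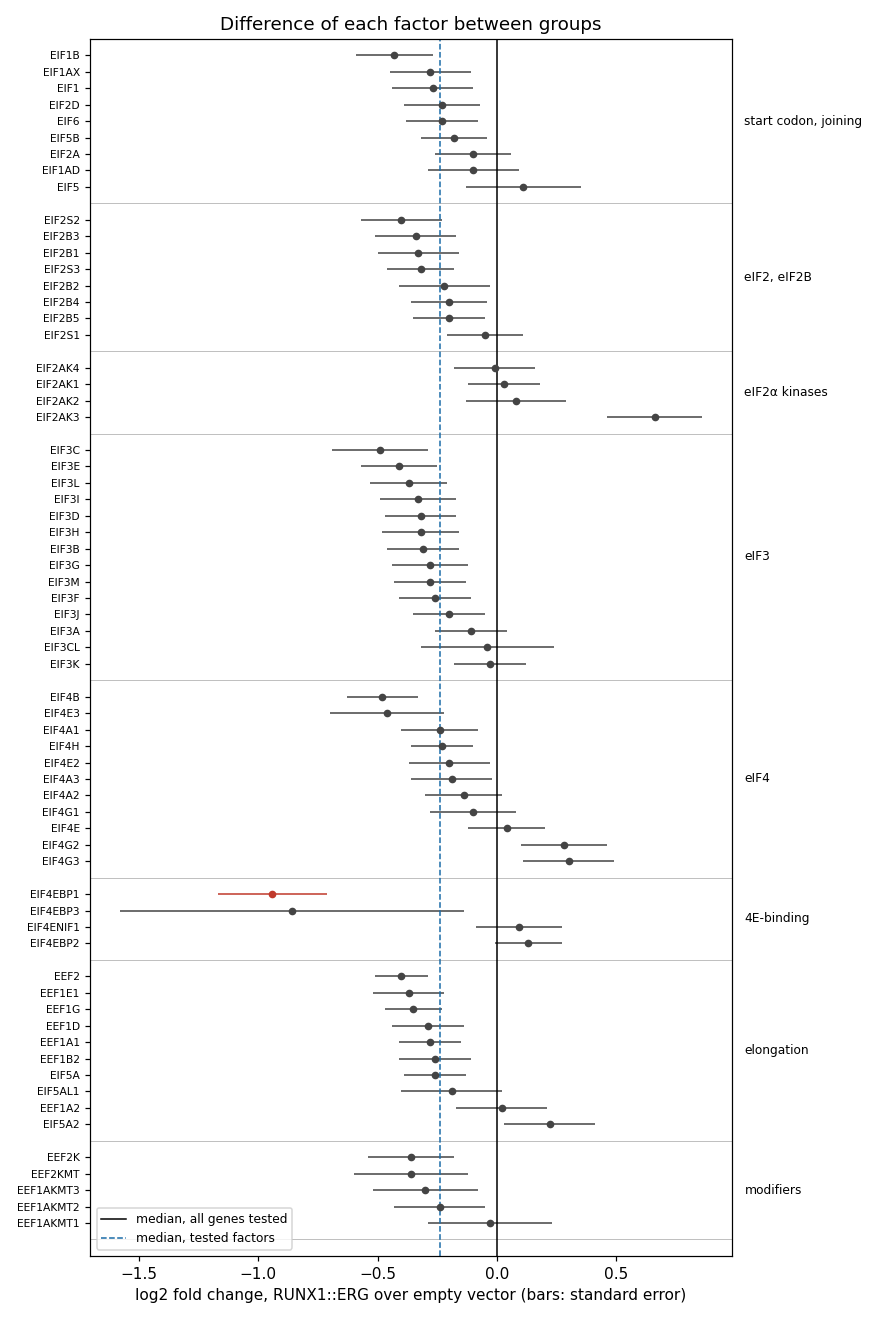
Each point is the log2 fold change of a tested factor, RUNX1::ERG over empty vector, with its standard error as a bar, grouped by role; red marks EIF4EBP1, the factor past the adjusted threshold. The dashed line is the median of the factors (-0.24) and the solid line that of all genes tested (0.00); the eIF3 and eIF2 groups lie left of the solid line, and EIF2AK3, EIF4G3, EIF4G2 and EIF5A2 lie right of it.

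The eIF4 group was divided. Of its 11 tested genes, 8 were lower and 3 higher, against 50.2% lower over all genes tested, with a median of -0.19. EIF4B, which stimulates the helicase, was at 788 and 870 CPM with the empty vector and at 548 and 643 with RUNX1::ERG. Its log2 fold change was -0.48 (SE 0.15, edgeR adjusted p = 0.096); without the filter on low counts it was called, with an adjusted p of 0.034. The helicases EIF4A1 and EIF4A2 had overlapping groups, at 758 and 991 against 676 and 803 CPM and at 298 and 370 against 283 and 322, with log2 fold changes of -0.24 and -0.14. Cap-binding EIF4E was at 95.2 and 111 CPM against 99.1 and 113, a log2 fold change of 0.04 (SE 0.16, edgeR adjusted p = 0.94). Its replicates differed by more than its groups did, and its sign turned in 2 of the fits without a library. The scaffold EIF4G1 was at -0.10.

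The 2 largest fitted rises in the eIF4 group were in EIF4G3, a paralog of the scaffold, and EIF4G2, a relative that lacks the eIF4E-binding part and serves cap-independent initiation. EIF4G2 was at 712 and 1033 CPM with the empty vector and at 964 and 1155 with RUNX1::ERG, so the groups overlapped. Its log2 fold change of 0.28 (SE 0.18, edgeR adjusted p = 0.48) was 0.03 without empty vector replicate 1 and 0.57 without replicate 2. EIF4G3 was at 60.3 and 75.5 against 72.3 and 95.2 CPM, a log2 fold change of 0.30 with an adjusted p of 0.46 by the same test. Per length, EIF4G1 stood at 0.764 and 0.772 of EIF4G2 with the empty vector and at 0.612 and 0.57 with RUNX1::ERG. This ratio within each library does not depend on the scaling, and it separated the groups. So did the ratios of EIF4EBP1 to EIF4EBP2, EIF4A1 to EIF4A2 and EIF5A to EIF5A2, but not that of EEF1A1 to EEF1A2. For EIF4EBP1 and EIF5A this follows from the levels: each was lower, and its paralog higher, without overlap. The ratio of EIF4A1 to EIF4A2 was 2.73 and 2.87 with the empty vector and 2.56 and 2.67 with RUNX1::ERG. The share of all gene pairs whose ratio separates the groups was not computed.

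EIF4EBP1, the eIF4E-binding protein also known as a target of the stress factor ATF4, fell. It was at 150 and 89.8 CPM in empty vector replicates 1 and 2 and at 68.9 and 56.4 in RUNX1::ERG replicates 1 and 2. Both libraries with RUNX1::ERG were under both with the empty vector, and empty vector replicate 1 stood above the rest. The log2 fold change was -0.94 (SE 0.23, edgeR adjusted p = 0.045), or 0.522-fold. Without empty vector replicate 1 it was -0.52 (adjusted p = 0.16, edgeR), and the call was also lost without RUNX1::ERG replicate 1 (-1.09, adjusted p = 0.051), with library totals as the scaling (adjusted p = 0.077) and with limma voom (adjusted p = 0.06). ATF4 mRNA was highest in the same library, at 443 CPM in empty vector replicate 1 and 252, 258 and 234 in empty vector replicate 2 and RUNX1::ERG replicates 1 and 2. MYC was at 301 and 289 against 134 and 140 CPM. The part of ATF4 or of MYC in the fall of EIF4EBP1 was not tested.

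The related EIF4EBP2 went the other way in value. It was at 294 and 291 CPM with the empty vector and at 310 and 330 with RUNX1::ERG, with no overlap, and its log2 fold change was 0.13 (SE 0.14, edgeR adjusted p = 0.72). Per length, EIF4EBP1 exceeded EIF4EBP2 by 4.63 and 2.79 times in the empty vector libraries and by 2.01 and 1.55 times in the RUNX1::ERG libraries. EIF4EBP3 had at most 13 counts in a library. EIF4ENIF1, which carries eIF4E into the nucleus, was at 28.6 to 32.8 CPM in all libraries.

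Of the 4 eIF2α kinases, 3 had log2 fold changes close to that of their substrate EIF2S1 (-0.05), and EIF2AK3 had a higher one. EIF2AK3, the kinase PERK of the endoplasmic reticulum, was at 11.6 and 14.0 CPM with the empty vector and at 19.8 and 20.5 with RUNX1::ERG, a 1.58-fold difference. The log2 fold change was 0.66 (SE 0.20), with an adjusted p of 0.098 by edgeR's test and 0.044 by the DESeq2 Wald test. The groups did not overlap, and without each library in turn its log2 fold change ran from 0.52 to 0.80. EIF2AK1, the heme-regulated kinase of erythroid cells and per length the highest of the 4, was at 293 and 274 against 277 and 304 CPM. EIF2AK2, the kinase PKR that senses double-stranded RNA, was at 22.6 and 28.4 against 23.6 and 30.4 CPM, and EIF2AK4, the amino acid sensor GCN2, at 60.4 and 67.0 against 57.9 and 68.7. In these last 3 the groups overlapped, with log2 fold changes of 0.03, 0.08 and -0.01, and each changed sign under at least 1 alternative.

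**Figure D4:**
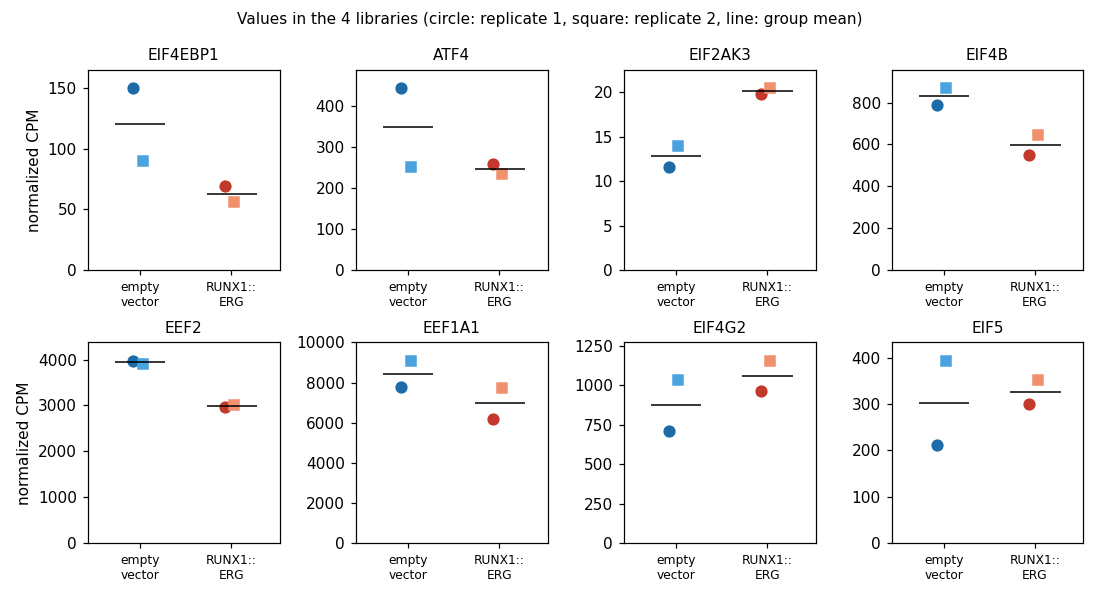
Normalized CPM of 8 genes in the 4 libraries, with circles for replicate 1, squares for replicate 2 and a line at each group mean; every axis starts at 0. EIF4EBP1 and ATF4 are highest in empty vector replicate 1 and EIF5 and EIF4G2 lowest there, whereas EIF2AK3, EIF4B and EEF2 separate the groups and EEF1A1 does so narrowly, at 7772 against 7708 CPM.

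The enzymes that modify elongation factors were expressed at low levels. EEF2K, which phosphorylates and inactivates eEF2, was at 69.0 and 65.1 CPM against 45.2 and 59.6, a log2 fold change of -0.36 (SE 0.18, edgeR adjusted p = 0.34). The lysine methyltransferases EEF2KMT, EEF1AKMT3, EEF1AKMT2 and EEF1AKMT1 were at -0.36, -0.30, -0.24 and -0.03, the last turning to 0.01 when scaled by library totals. None of these 5 genes passed the adjusted threshold in edgeR's or DESeq2's test, or an unadjusted p under 0.05 in edgeR's. Over all genes tested these shares were 4.79%, 7.27% and 18%.

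The 12 factors with a pyrimidine tract at the annotated start were all lower in the main comparison, from -0.48 for EIF4B to -0.03 for EIF3K (0.01 when scaled by library totals), with a median of -0.27. The 39 tested factors with a promoter in the table and no such start had a median of -0.20. For a list of 10 factors known from general knowledge as TOP mRNAs (EEF1A1, EEF1A2, EEF1B2, EEF1D, EEF1G, EEF2, EIF3E, EIF3F, EIF3H and EIF4B), 9 were lower with a median of -0.31, against 45 of 55 and a median of -0.22 in the other tested factors. In each of these 9 both libraries with RUNX1::ERG were under both with the empty vector, as in 29 of the 55 other tested factors (52.7%) and 22.1% of all genes tested. Of the 10 in the list, EEF1A1, EEF1B2, EEF2, EIF3F and EIF4B are also among the 12 with a tract. The others had no such start, or no promoter, among those read.

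Promoters were also read for the letters bound by MYC with its partner MAX and by the domains of the fusion, since MYC fell and the fusion keeps both domains. The E-box CACGTG was in 18.8% of the member starts, against 7.26% of all promoters and 9.22% of those of tested genes. The ETS sequence CCGGAAGT, on either strand, was in 15.9%, against 4.14% and 7.08%. The Runt sequence TGTGGT, on either strand, was in 7.25%, against 13.1% and 10.1%. The motifs do not overlap in letters, and a match is no evidence of binding. The 13 factors with an E-box had a median log2 fold change of -0.23 with 10 lower. The 10 with the ETS letters had -0.23 with 9 lower, and the 4 with the Runt letters -0.24 with 4 lower. These medians were near that of all factors. Windows of 30 bases around the E-box are shown for 4 factors that differ in direction, with the motif in capitals and, where a promoter held 2 boxes, the one nearer the start.
EIF4B (chr12:53006422-53006451, plus strand, log2 fold change -0.48): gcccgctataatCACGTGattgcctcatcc
EIF1B (chr3:40309641-40309670, plus strand, log2 fold change -0.43): gcgcgggacggtCACGTGggaggggccgcg
EIF4E (chr4:98929188-98929217, minus strand, log2 fold change 0.04): ggacatatccgtCACGTGgccagaagctgg
EIF5A2 (chr3:170908782-170908811, minus strand, log2 fold change 0.22): cagggcgctcttCACGTGactgggcggagc
The first base of these boxes lay 22, 54, 72 and 162 bases before the annotated start, in the same order. EIF4B, with the largest fall in value among the eIF4 factors, and EIF5A2, with a rise in value, both hold the box.

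Without the low-count filter 3 factors were called (EIF4EBP1, EEF2 and EIF4B, all lower), against 7.38% of genes. The DESeq2 Wald test called 2, EIF4EBP1 lower and EIF2AK3 higher, against 7.27%. In both fits the share of the factors called was below that of all genes.

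Of other cytosolic translation genes, a list of 46 was examined that holds release and recycling factors, poly(A)- and cap-associated proteins, signalling genes and the enzymes of hypusine and diphthamide synthesis. All 46 were tested and none was called in edgeR's test, against 4.79% of all genes. In the same test 6 (13%) had an unadjusted p under 0.05, each lower, against 7.26% of all genes. ABCF1 was called lower by the DESeq2 Wald test (adjusted p = 0.0071), and by edgeR with DESeq2 size factors (0.045) and without the low-count filter (0.00018), the last of which also called ATF4 lower (0.045). In fitted value 35 were lower, with a median of -0.13. PABPC1, the poly(A)-binding protein that circularizes mRNA with eIF4G, was at 1858 and 1854 CPM against 1406 and 1429, a log2 fold change of -0.39 (SE 0.12, edgeR adjusted p = 0.11). The largest rise in value was in MKNK1, a kinase of eIF4E, at 37.3 and 41.9 against 49.3 and 48.6 CPM (log2 fold change 0.31, adjusted p = 0.39, edgeR). The lowest value was that of ABCF1, which helps eIF2 act, at 3.70 and 2.11 against 1.20 and 0.543 CPM (log2 fold change -1.73, adjusted p = 0.059, edgeR). ABCF1 had only 39 to 223 counts in a library. With the empty vector, ABCF2 and ABCF3 had means of 292 and 86.4 CPM. Whether reads of ABCF1 were lost in counting was not tested.

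The libraries held between 59695387 and 82352144 counts, so counting error is small for all but the rarest factors, and a count of 0 allows up to 3 counts, at most 0.0503 CPM. Between 66.7% and 68.9% of the counts from 1 to 10 were even, which is what counting both mates of a pair would give, and these limits would then be too narrow. The factors took 2.85% and 3.04% of all counts with the empty vector and 2.43% and 2.66% with RUNX1::ERG. RUNX1 was at 78.6 and 49.0 against 786 and 400 CPM, as the labels imply, with reads of plasmid and genome not separated, and GAPDH had overlapping groups. Erythroid markers of K562 were present, with HBG2 at 2503 to 3123 CPM and GATA1 at 256 to 302. Of 14 markers of T and B cells, monocytes and epithelium, MS4A1 and KRT14 had no count in any library; 6 passed the filter, among them EPCAM and CD3D, at 55.5 to 81.2 and 20.5 to 34.7 CPM. The monocyte list summed to 7.24 and 10.4 CPM with the empty vector and 22.1 and 20.8 with RUNX1::ERG through LYZ and CD14, both called higher, and its part in the factor levels was not tested.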

How the data were processed

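RNA was extracted from transfected K562 cells, poly(A)-enriched and sequenced as paired-end reads in 4 libraries, 2 for each group. The values deposited by the authors are unnormalized counts, 1 file for each library, with genes given by NCBI number. The submitters' processing notes name HISAT2 2.2.1, featureCounts 2.0.1 and hg19; the annotation, the strand setting and the handling of read pairs and of reads with several hits are not given in the sources used here. Genes that overlap, lie antisense or have near-identical copies are therefore uncertain, and multi-mapped reads may be missing from them.

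Gene numbers were matched to a RefSeq table of GRCh38.p14, which named 92.2% of 25702 genes. Of 70 protein-coding genes that meet the naming rule there, 3 are not in these tables and were not analysed here. Gene positions and lengths are those of GENCODE v44 on GRCh37, with 1 canonical transcript for each gene, and a long annotated end lowers the level per length (EIF3F is an example). Promoter positions are on GRCh38.p14.

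Counts were fitted across all genes in R 4.3.3 with edgeR 4.0.16 (TMM scaling, its filter on low counts, quasi-likelihood test, Benjamini-Hochberg adjustment, threshold 0.05). The standard error is the log2 fold change divided by the square root of F. With 2 libraries against 2, an exact permutation test could not go below p = 0.333. The labels call the libraries replicates, and p-values measure the spread between them. Alternatives were DESeq2 1.42.0, limma 3.58.1 voom, 2 other scalings, 2 other filters, halved counts, a replicate block and leaving out each library. The procedure was tested on simulated data.

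Named with full values were the factors past the threshold, the 5 largest rises and 5 largest falls with a mean of at least 10 CPM, the highest level per length in each role, selected paralogs and the eIF2α kinases. EIF5, EEF1G, EEF2, EIF2S2, PABPC1, TUFM, EIF4G1 and the group of genes above 100 CPM were chosen after values were seen. The factors, role lists and tests were chosen with earlier results of these data known, so none is independent evidence.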

Additional observations from a re-analysis of the deposited data

How the results depend on the processing

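The number of factors called was 1 in the main comparison, where 4.79% of all genes tested were called. It was also 1 with DESeq2 size factors, at least 10 counts in every library or halved counts, against 5.26%, 4.51% and 5.19% of all genes. It was 0 with library totals as the only scaling and 0 with limma voom, against 4.01% and 4.47%. It was 3 without a low-count filter and 2 with the DESeq2 Wald test, against 7.38% and 7.27%. With the replicate block it was 8, against 11.3% of all genes (EIF4EBP1, EEF2, EEF1A1, EEF1G, EIF4B, EIF3C and EIF3E lower, EIF2AK3 higher). Unadjusted p-values under 0.05 were given to 11 factors by the fit on library totals and to 13 by limma voom. With each library left out it ran from 0 (without RUNX1::ERG replicate 1, with 3 at an unadjusted p under 0.05 and 1.81% of all genes called) to 5 (without empty vector replicate 2: EIF4G2, EIF5 and EIF2AK3 higher, EIF2S2 and EIF4EBP1 lower, with 8.32% of all genes called); these fits leave one arm with a single library, which is assumed to vary like the others. The cause was not tested.

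The median log2 fold change of the factors was negative under every alternative, from -0.31 to -0.15. The ends of this range came from leaving out RUNX1::ERG replicate 2 and empty vector replicate 2. Leaving out a library moves the median by part of the spread between libraries. These moves therefore cannot be judged against that spread. The number of factors with non-overlapping groups was 41 in the main comparison. There 58.5% of the factors were lower without overlap and 4.62% higher, against 22.1% and 25.1% of all genes tested. The number was 40 to 42 with all 4 libraries under other scalings and filters. It was 50 to 56 with 3, as fewer libraries overlap less by construction. The share of all genes was not computed for these alternatives, so their counts cannot be set against it. Fits that change the test alone leave the number as it is. Scaling by library totals moved the median of all genes to 0.04 and that of the factors to -0.20, with 50 of the factors lower.

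No pairing was assumed: libraries with the same number deviated together from their group means (r = 0.349 across 15394 genes, which are not independent replicates), but the sources give nothing beyond the number that links them. The replicate block left the median at -0.24. Under it EEF1A2 was at 0.00.

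Near 0, signs turned: EEF1A2 was at 0.00 with limma voom, EIF2AK4 at 0.03 and EIF3K at 0.01 with library totals, and GAPDH at -0.01 under DESeq2 size factors, the unfiltered fit and the Wald test. With a library left out, EEF1A2 ran from -0.26 to 0.24, EIF2AK1 from -0.05 to 0.10, EIF2AK2 from -0.13 to 0.25, EIF2AK4 from -0.15 to 0.11, EIF3K from -0.13 to 0.07, EIF4A2 from -0.29 to 0.02, EIF4E from -0.07 to 0.16 and GAPDH from -0.10 to 0.11. Of the values of named genes under alternatives, 296 kept direction and side of the threshold, 13 passed it, 4 no longer passed it and 22 turned in sign. The 4 were those of EIF4EBP1. Low counts limit EIF4EBP3 and EIF4E1B, and reads shared with near-identical copies may affect EIF3C, EIF3CL and EIF5AL1.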

Other observations

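Mitochondria use their own translation factors, which resemble those of bacteria. Of 10 such genes, all tested, 7 were lower in fitted value, against 50.2% of all genes tested. None was called by edgeR's test, against 4.79% of all genes, and 2 (20%) were lower at an unadjusted p under 0.05, against 7.26%. The DESeq2 Wald test called 1, MTIF2 (adjusted p = 0.048), against 7.27% of all genes. MTIF2 was also called by edgeR without the low-count filter (adjusted p = 0.021), where 7.38% of all genes were called. TUFM, which delivers aminoacyl-tRNA to the mitochondrial ribosome, was at 576 and 604 CPM with the empty vector and at 456 and 451 with RUNX1::ERG, a log2 fold change of -0.38 (SE 0.14, edgeR adjusted p = 0.16). MTIF2, the initiation factor that places the first tRNA, was at 127 and 137 against 76.6 and 101 CPM, a log2 fold change of -0.57 (SE 0.17, edgeR adjusted p = 0.098). In both genes the RUNX1::ERG libraries lay below the empty vector libraries. The elongation factors GFM1 and GFM2 had overlapping groups and log2 fold changes of -0.09 and 0.03, and the release factors MTRF1 and MTRF1L were at 0.13 and 0.00. The median of the 10 was -0.06, against 0.00 for all genes tested.

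EEF1A1 has many processed pseudogenes in the genome, of which the count files list 2. These held 22 to 51 counts in a library, at most 0.011% of the counts of EEF1A1. The value says how few reads were counted on those copies and not how reads with several hits were handled.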
